A study of Mus musculus with 32 samples.

Results

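The genes described here make, destroy or respond to the cyclic nucleotides cAMP and cGMP. They are the genes whose symbol is Pde or Adcy followed by a number or begins with Prkar, Prkac, Prkg or Akap, and that had a probe with a detection p under 0.05 on at least 4 of the 32 arrays. The array held 54 gene symbols of these families that were considered, and 40 passed the detection rule, of 10412 genes that passed it in all. The members were 17 phosphodiesterases, 7 adenylyl cyclases, 2 regulatory and 2 catalytic subunits of the cAMP-dependent protein kinase (PKA), 2 cGMP-dependent kinases and 10 anchoring and scaffold proteins. Of these, 24 were detected on all 32 arrays.

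The samples were whole olfactory bulbs of mice on a mixed C57/BL6, 129/Ola and CD1 background, analysed on Illumina bead arrays with 8 arrays in each of 4 groups. At embryonic day E18.5, controls were Tshz1 GFP/+ and mutants Tshz1 GFP/delta, all without Cre (nestin +/+). At postnatal day 30 (P30), controls were Tshz1 flox/+ and mutants Tshz1 flox/GFP, and all carried nestin +/Cre. The controls of both ages therefore had 1 altered Tshz1 allele, and the ages differed in the kind of allele as well as in age. The nestin promoter used to drive Cre acts in neural progenitors, so recombination reaches the neurons and glia that descend from them. The genotype titles of the P30 arrays were exchanged by the submitters after deposit, and the corrected titles were used. No probe named Tshz1 was among those used here, and the genotypes could not be checked by the targeted gene's own level. The labels do not say whether replicates were separate animals, and p-values cover just the variation among these samples, which may be technical.

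Adenylyl cyclases make cAMP, mostly under the control of G protein-coupled receptors and, for some members, of calcium. PKA is held inactive by its regulatory subunits until cAMP binds them, and A-kinase anchoring proteins (Akap) place it near its substrates, while cGMP acts in part through the cGMP-dependent kinases. Phosphodiesterases end both signals. In the olfactory system cAMP is best known as the second messenger of odour detection in sensory neurons, and within the bulb it also takes part in the responses of mitral, granule and periglomerular neurons.

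All arrays of an age were background corrected and quantile normalized together, and levels below are log2 normalized intensities of a gene's brightest probe. Between 40.1% and 55.2% of probes were detected per array. Replicates of a group correlated at between 0.944 and 0.994, and no 2 were identical. E18.5 control replicates 6 and 8 and P30 mutant replicates 1 and 2 stood apart from their groups on the first principal component, and called results are given without them where that changed the call. Of the granule cell markers, the main interneurons of the bulb, Gng4 and Nrgn were lower in E18.5 mutants among 4 tested, and all 4 were lower in P30 mutants. The summed normalized intensity of the granule markers was 7443 to 11276 in P30 controls and 3705 to 7089 in P30 mutants, without overlap, and 10796 to 18048 against 8642 to 16718 at E18.5. Synpr, Pcp4 and Camk4 of that list were undetected. Because whole bulbs were measured, fewer cells of a type and less RNA per cell cannot be told apart.

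The sequences below are RefSeq windows of 250 bases immediately upstream of a start site (GRCm38.p6), shown for Pde4d and Pde2a, the phosphodiesterases that passed the test between genotypes. GC boxes (GGGCGG on either strand) are in capitals.

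Pde4d, chr13:108653927-108654176, plus strand: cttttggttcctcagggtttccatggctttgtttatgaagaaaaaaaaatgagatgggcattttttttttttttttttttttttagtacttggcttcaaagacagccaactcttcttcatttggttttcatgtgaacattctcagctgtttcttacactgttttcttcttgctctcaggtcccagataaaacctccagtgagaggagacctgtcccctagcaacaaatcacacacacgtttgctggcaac

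Pde2a, chr7:101451002-101451251, plus strand: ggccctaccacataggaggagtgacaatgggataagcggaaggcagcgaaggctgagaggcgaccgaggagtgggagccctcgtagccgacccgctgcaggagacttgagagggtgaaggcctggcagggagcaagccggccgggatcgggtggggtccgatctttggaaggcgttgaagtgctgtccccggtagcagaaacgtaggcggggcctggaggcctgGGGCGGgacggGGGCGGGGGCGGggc

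The Pde4d window held none of 3 motifs searched on both strands, which were the cAMP response element TGACGTCA, the shorter TGACG that lies within it, and the GC box. The Pde2a window held 3 GC boxes, and the 4 other RefSeq windows of that gene held none. Windows were found for 32 of the 40 members. The full cAMP response element stood upstream of 1 member, Prkar1a (3.125% of 32, against 2.888% of 8415 detected genes with a window), in 1.389% of the members' 72 windows against 1.546% of all 32851. TGACG stood upstream of 10 members (31.25%, against 29.234% of detected genes), in 16.667% of their windows against 17.765% of all. A GC box stood upstream of 23 members (71.875%, against 62.389% of detected genes), in 45.833% of their windows against 32.742% of all. The sources used here do not say which transcript each array probe reads, and a match of letters is a description of the sequence only.

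At E18.5 the first question was which of these genes differed between Tshz1 mutant and control bulbs. Of 38 members tested, 1 was lower in the mutants, the cAMP-specific phosphodiesterase Pde4d, and none was higher (limma with Benjamini-Hochberg adjustment over all genes, adjusted p under 0.05). In all, 0.581% of the 10852 genes tested passed, 0.507% lower and 0.0737% higher. An unadjusted p under 0.05 was reached by 5 members. The share of all genes that reached it was not computed, and the shares above are for the adjusted p. The median log2 change of the members was 0.02, and that of all genes −0.01, with 20 members above 0 and 18 below. Pde7b and Pde8b were not tested, because they were detected on fewer than 4 arrays of this age.

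At P30, 3 of 36 members tested passed, and 4.33% of the 9928 genes tested did (2.00% higher and 2.33% lower). Pde4d was again lower in the mutants, while Pde2a, a phosphodiesterase that cGMP stimulates and that degrades cAMP and cGMP, and Adcy8, a calcium-stimulated adenylyl cyclase of the brain, were higher. An unadjusted p under 0.05 was reached by 7 members, again without a computed share of all genes at that cutoff. The members' median log2 change was −0.03 against 0.01 for all genes, with 15 above 0 and 21 below. Pde3a, Pde5a, Pde7a and Pde7b were detected on fewer than 4 arrays at P30 and were not tested. Pde4d was the only member whose 2 groups did not overlap, at E18.5 (0.341% of all genes tested had such groups) and at P30 (1.12%).

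**Figure D1:**
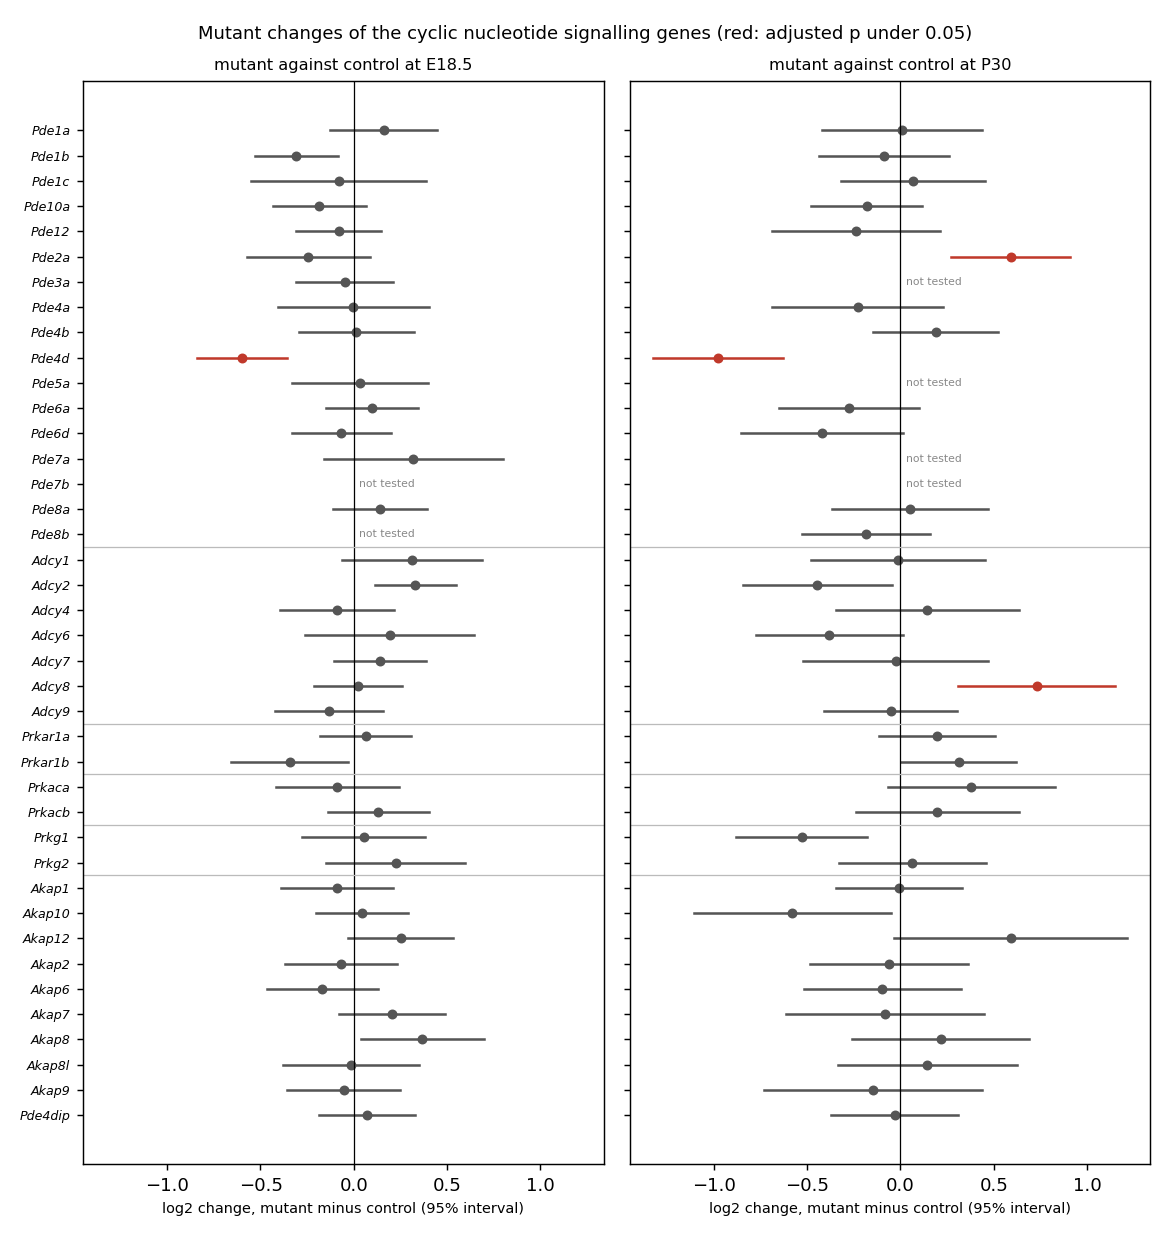
Log2 change (mutant minus control) with its 95% interval for each of the 40 members, at E18.5 on the left and P30 on the right, ordered by role and parted by grey lines. Pde4d, at −0.60 and −0.98, is the only member in red (adjusted p under 0.05) at both ages, and Pde2a and Adcy8 are red at P30.

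Among the phosphodiesterases, Pde4d belongs to the family that degrades cAMP and not cGMP. At E18.5 its level in controls ran from 8.14 to 8.61 with a median of 8.44, and in mutants from 7.40 to 8.04 with a median of 7.82. Every mutant array lay below every control array. The mean fell by 0.60 on the log2 scale (SE 0.11, 95% interval −0.84 to −0.36, limma adjusted p = 0.0133), which is 1.52-fold, and the change was −0.62 on the first chip of that age and −0.58 on the second.

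At P30, Pde4d ranged from 7.70 to 8.61 in controls with a median of 8.00, and from 6.83 to 7.50 in mutants with a median of 7.02. The groups were again apart on every array. The mean fell by 0.98 on the log2 scale (SE 0.17, 95% interval −1.32 to −0.63, limma adjusted p = 0.000833), which is 1.97-fold. The change was −1.33 on the first P30 chip and −0.62 on the second. The E18.5 call was lost on the second chip alone (log2 change −0.58, adjusted p = 0.992) and with all 32 arrays processed together (−0.56, adjusted p = 0.110), and the P30 call on the second chip alone (−0.64, adjusted p = 0.143). A second Pde4d probe was detected on 0 arrays, so 1 probe carries the result. Granule cell markers moved the same way at both ages, by the values given above, and their part in the Pde4d difference was not tested.

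Pde2a ranged in P30 controls from 7.23 to 7.90 with a median of 7.63, and in P30 mutants from 7.77 to 8.70 with a median of 8.14. Of the 8 mutant arrays, 7 lay above every control. The mean rose by 0.59 on the log2 scale (SE 0.15, 95% interval 0.27 to 0.91, 1.51-fold, limma adjusted p = 0.0259), by 0.88 on the first chip and 0.30 on the second.

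At E18.5 the Pde2a difference had the opposite sign and did not pass (−0.24, 95% interval −0.57 to 0.09, limma adjusted p = 0.658). Controls ran from 8.00 to 9.36 with a median of 8.43, and mutants from 8.05 to 8.58 with a median of 8.17, so every mutant lay within the control range. The change at P30 exceeded that at E18.5 by 0.85 on the log2 scale (SE 0.22, 95% interval 0.41 to 1.29, limma interaction, adjusted p = 0.0278). Pde2a was the only one of 40 members past the threshold for a difference between the ages, beside 1.85% of 11312 genes (1.03% with a higher change at P30 and 0.813% with a lower one). Without E18.5 control replicates 6 and 8, the highest Pde2a controls, the difference was 0.66 with an adjusted p of 0.0844, and without P30 control replicate 3 its adjusted p was 0.0525. The P30 change itself missed the threshold on the first chip alone (0.84, adjusted p = 0.103), on the second alone (0.31, adjusted p = 0.520), and when P30 control replicate 2 was left out (adjusted p = 0.0613). The same held for leaving out P30 control replicate 3, at 0.0651, or P30 mutant replicate 4, at 0.0572. Leaving out P30 mutant replicates 1 and 2 together, a check chosen after seeing the data, gave an adjusted p of 0.0525. With median scaling in place of quantile normalization, the P30 change was 0.52 (adjusted p = 0.140) and the difference between the ages had an adjusted p of 0.279. Age, chip and kind of allele cannot be told apart in the comparison of ages.

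**Figure D2:**
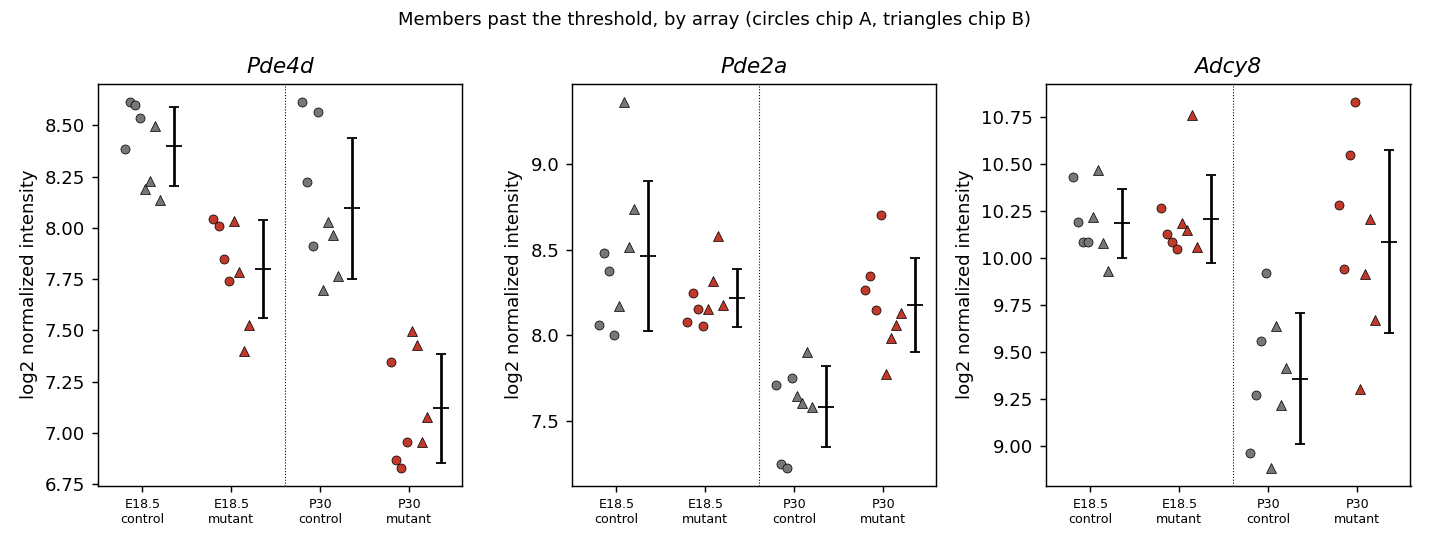
Log2 normalized intensity of Pde4d, Pde2a and Adcy8 on each array, by group, with circles for the first chip and triangles for the second chip of each age, and the mean and SD beside each group of 8. Pde4d mutants lie below all controls at each age, and 7 of 8 P30 mutants lie above all P30 controls for Pde2a. The arrays of the 2 ages were normalized separately, so levels are compared within an age.

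The other phosphodiesterases showed no change past the threshold. Pde1b, which calcium and calmodulin activate, had the second smallest p of the class at E18.5, where its mean was 11.89 ± 0.22 (SD, n = 8) in controls and 11.59 ± 0.16 in mutants (log2 difference −0.31, 95% interval −0.53 to −0.08, limma adjusted p = 0.379), and at P30 the difference was −0.09. Over the class, changes ran from −0.60 to 0.32 among 15 tested at E18.5 and from −0.98 to 0.59 among 13 tested at P30, with 6 and 5 above 0. The widest 95% interval reached 0.48 to either side of its estimate at E18.5 and 0.46 at P30. These intervals are not adjusted for the number of genes tested. As for Pde1b at E18.5, an interval that left out 0 could still go with a missed threshold. Changes larger than these widths could therefore also go uncalled. The symbol rule also takes in Pde12, a phosphodiesterase that acts on RNA, and Pde6d, a carrier of prenylated proteins, and neither passed.

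Among the adenylyl cyclases, Adcy8 ranged from 8.88 to 9.92 in P30 controls with a median of 9.34, and from 9.30 to 10.83 in P30 mutants with a median of 10.08. The groups overlapped, and 5 of the 8 mutants lay above all controls. The mean rose by 0.73 on the log2 scale (SE 0.20, 95% interval 0.31 to 1.15, 1.66-fold, limma adjusted p = 0.0407), by 0.97 on the first chip and 0.49 on the second.

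At E18.5 Adcy8 ranged from 9.93 to 10.47 in controls and from 10.05 to 10.76 in mutants, with a median of 10.14 in each group, and the log2 difference was 0.02 (95% interval −0.21 to 0.26). The difference between the ages did not pass (0.68, limma adjusted p = 0.136). The P30 call was close to the threshold. It was lost when any of P30 control replicates 1, 2, 3, 5, 7 and 8 or mutant replicates 1, 3, 4 and 7 was left out, at adjusted p-values of 0.0549 to 0.0895, with log2 changes of 0.62 to 0.76. It was also lost with median scaling (adjusted p = 0.239), with no filter on detection (adjusted p = 0.0847), on either chip alone, and without P30 mutant replicates 1 and 2 (adjusted p = 0.0564).

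Adcy2, a cyclase that G protein beta-gamma subunits stimulate, had opposite signs at the ages. At E18.5 controls ran from 9.78 to 10.37 with a median of 10.21 and mutants from 10.22 to 10.68 with a median of 10.47, and 7 of 8 mutants lay above all controls (log2 difference 0.33, SE 0.10, limma adjusted p = 0.283). At P30 controls ran from 9.80 to 10.78 with a median of 10.13 and mutants from 9.29 to 10.68 with a median of 9.67 (−0.45, SE 0.19, limma adjusted p = 0.238). The difference between the ages was −0.76 and just missed the threshold (SE 0.21, limma adjusted p = 0.0526). It passed in 10 of 43 alternatives, among them chip as a block (adjusted p = 0.0148) and median scaling (adjusted p = 0.0244). With median scaling the P30 difference passed as well (−0.56, adjusted p = 0.0399), as it did without P30 mutant replicates 1 and 2 (−0.65, adjusted p = 0.0227). In the other 27 of 29 alternatives the P30 difference did not pass. Over all 29 it ran from −0.65 to −0.34, with limma adjusted p-values up to 0.652. Adcy1, another calcium-stimulated cyclase, had the second smallest p of the class at E18.5 (log2 difference 0.31, limma adjusted p = 0.615). Of the 7 cyclases tested, 5 were above 0 at E18.5 and 2 at P30.

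**Figure D3:**
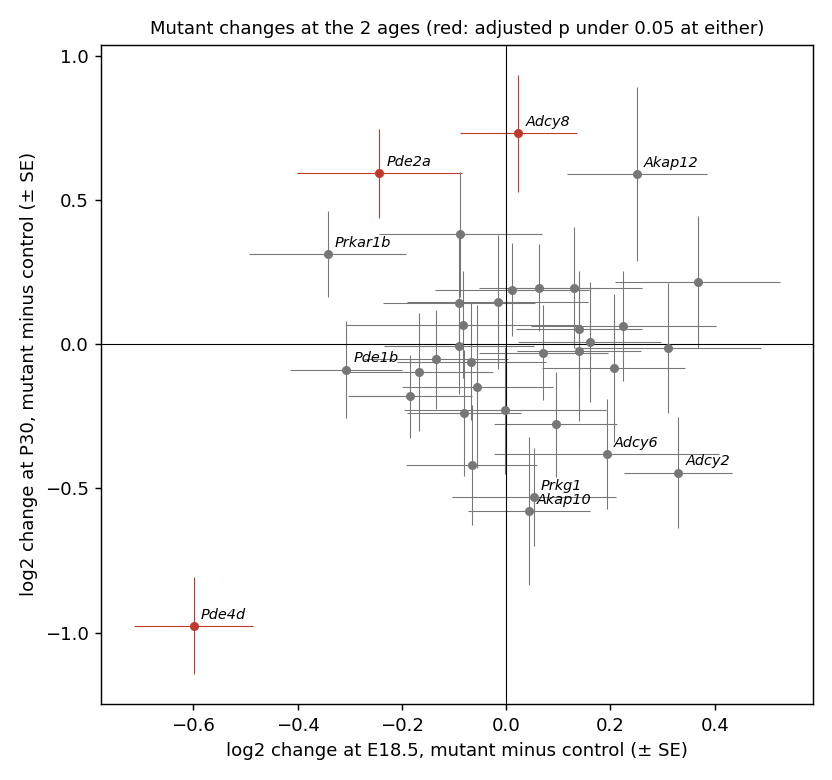
Log2 change at P30 against log2 change at E18.5 (mutant minus control, with SE bars) for the 35 members tested at both ages, with members past the threshold at either age in red. Pde4d lies alone at the lower left, Pde2a and Adcy8 lie high with changes of −0.24 and 0.02 at E18.5, and 20 of the 35 have the same sign at both ages.

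No PKA subunit passed in either mutant comparison. Prkar1b, a regulatory subunit made mainly in neurons, ran from 10.25 to 11.27 in E18.5 controls with a median of 10.73 and from 10.07 to 10.76 in mutants with a median of 10.43 (log2 difference −0.34, 95% interval −0.66 to −0.03, limma adjusted p = 0.522). At P30 it ran from 9.90 to 10.42 in controls with a median of 10.03 and from 10.11 to 10.97 in mutants with a median of 10.35 (0.31, 95% interval 0.00 to 0.62, limma adjusted p = 0.303). The groups overlapped at both ages, and the difference between the ages was 0.65 (limma adjusted p = 0.0978). Prkar1a, the widely made regulatory subunit, differed by 0.06 at E18.5 and 0.20 at P30. The catalytic subunits Prkaca and Prkacb differed by −0.09 and 0.13 at E18.5 and by 0.38 and 0.20 at P30, with 95% intervals that included 0. The probes of Prkar2a and Prkar2b, the other regulatory subunits on the array and named here after their values were seen, were detected on 0 arrays.

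Of the cGMP-dependent kinases, Prkg1 ran from 6.67 to 7.78 in P30 controls with a median of 6.91, and from 6.08 to 6.79 in P30 mutants with a median of 6.46. Of the 8 mutants, 7 lay below all controls. The log2 difference of −0.53 did not pass (SE 0.17, limma adjusted p = 0.0797). It passed in 4 of 29 alternatives, among them median scaling (−0.55, adjusted p = 0.0394) and all 32 arrays processed together (−0.64, adjusted p = 0.00919). Leaving out P30 mutant replicates 1 and 2 was another (adjusted p = 0.0336). In the other 25 it did not pass. Over all 29 the change ran from −0.64 to −0.31, with limma adjusted p-values up to 0.357. At E18.5 the difference was 0.05. Prkg2, the other kinase, differed by 0.22 at E18.5 and 0.06 at P30.

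None of the 10 anchoring and scaffold proteins passed at either age. The smallest p-values at E18.5 were those of Akap8, a nuclear anchor (log2 difference 0.37, 95% interval 0.04 to 0.70, limma adjusted p = 0.517), and of Akap12, a membrane-associated scaffold (0.25, 95% interval −0.03 to 0.53). At P30 they were those of Akap10 (−0.58, 95% interval −1.11 to −0.05, limma adjusted p = 0.253) and Akap12 (0.59, 95% interval −0.03 to 1.21). Akap10 was low on P30 mutant replicates 1 and 2, the arrays that stood apart, at 5.67 and 5.73 against 6.63 to 7.54 on the other mutants, and without them the difference was −0.22 (limma adjusted p = 0.602). On the first P30 chip it was −1.06 and on the second −0.10. Akap10 was read by different probes at the 2 ages, since the brightest probe differed. The class includes Pde4dip, a scaffold protein and no phosphodiesterase, whose symbol begins with Pde and a number, and its changes were 0.07 at E18.5 and −0.03 at P30.

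Members near the detection rule were Pde3a and Pde7b, detected on 5 arrays each, as the lowest inside it, and Akap4 (3 arrays), Akap3 (2 arrays) and Pde3b (1 array) as those just outside it. Another 11 genes of the families were detected on 0 arrays.

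The other genes of these pathways were taken from lists of 83 genes, covering guanylyl cyclases and natriuretic receptors, receptors coupled to adenylyl cyclase, G protein subunits, PKA inhibitors and phosphatase regulators, cAMP-activated exchange factors and channels, the CREB family, and transporters. At E18.5, 1 of 42 tested was higher and none lower, beside 0.581% of all genes called. At P30, 2 of 41 tested were higher and 1 lower, beside 4.33% of all genes called. These counts read each gene by its brightest probe. At P30 a dimmer probe of Pkig, a PKA inhibitor, had a log2 change of −1.13 (limma adjusted p over probes = 0.00109). Its brightest probe gave −0.63 (limma adjusted p over probes = 0.202) and the remaining probe −0.50. Pkig is named here after its values were seen. No CREB family member, G protein alpha subunit, or cAMP-activated exchange factor or channel passed, with 7, 4 and 6 tested at E18.5 and 6, 4 and 6 at P30.

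Npr3, the receptor that clears natriuretic peptides and so limits signalling through the guanylyl cyclase receptors, rose at both ages. At E18.5 it ran from 5.61 to 6.42 in controls with a median of 5.98, and from 6.44 to 7.20 in mutants with a median of 6.78, without overlap. The log2 change was 0.76 (SE 0.13, 1.69-fold, limma adjusted p = 0.00703). At P30 controls ran from 5.21 to 6.56 with a median of 5.95 and mutants from 6.34 to 7.16 with a median of 6.89, and 6 of 8 mutants lay above all controls (log2 change 0.89, SE 0.19, 1.86-fold, limma adjusted p = 0.00529). The probe was dim, detected on 4 of 8 E18.5 controls and 6 of 8 P30 controls and on all mutants. An added offset shrinks the log2 change of a dim probe, by an amount not estimated here. The control values also include arrays on which the probe was not detected, so the size of the change is uncertain. The E18.5 call was lost on either chip alone and with all 32 arrays processed together (0.64, adjusted p = 0.279), and the P30 call on either chip alone.

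Ppp1r1b encodes DARPP-32, a phosphatase inhibitor that PKA switches on. At P30 it ran from 8.71 to 9.72 in controls with a median of 9.39, and from 9.60 to 10.61 in mutants with a median of 10.12. Of the 8 mutants, 7 lay above all controls, and the mean rose by 0.81 on the log2 scale (SE 0.17, 1.76-fold, limma adjusted p = 0.00435). At E18.5 the difference was 0.46 (limma adjusted p = 0.343). A second Ppp1r1b probe gave 0.34 at P30 (adjusted p over probes = 0.425) and −0.01 at E18.5, so the probes differed. Ppp1r1b is also 1 of the striatal neuron markers. The other 5 striatal markers tested had a summed normalized intensity of 441 to 635 in P30 controls and 461 to 819 in P30 mutants, with overlap. All 5 had changes above 0 (0.08 to 0.49), none passed, and Gpr6 was undetected. The part of such cells in the result was not tested. The call was lost on the second P30 chip alone (0.67, adjusted p = 0.201).

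Vipr2, a receptor for vasoactive intestinal peptide that stimulates adenylyl cyclase, ran from 5.20 to 6.39 in P30 controls with a median of 5.93, and from 4.69 to 5.29 in P30 mutants with a median of 4.93. It was detected on 5 of 8 controls and on 0 of 8 mutants. The mutant level is therefore only a bound, and Vipr2 was at least 1.09-fold lower in the mutants. The limma adjusted p of 0.00207 belongs to the fitted difference from undetected mutant values, and the bound itself was not tested. It was not tested at E18.5, where it was detected on 0 arrays. It entered the P30 test through its detection in the controls. Since it was detected on 0 of 8 arrays in each group but the P30 controls, no size is given for a difference between the ages.

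**Figure D4:**
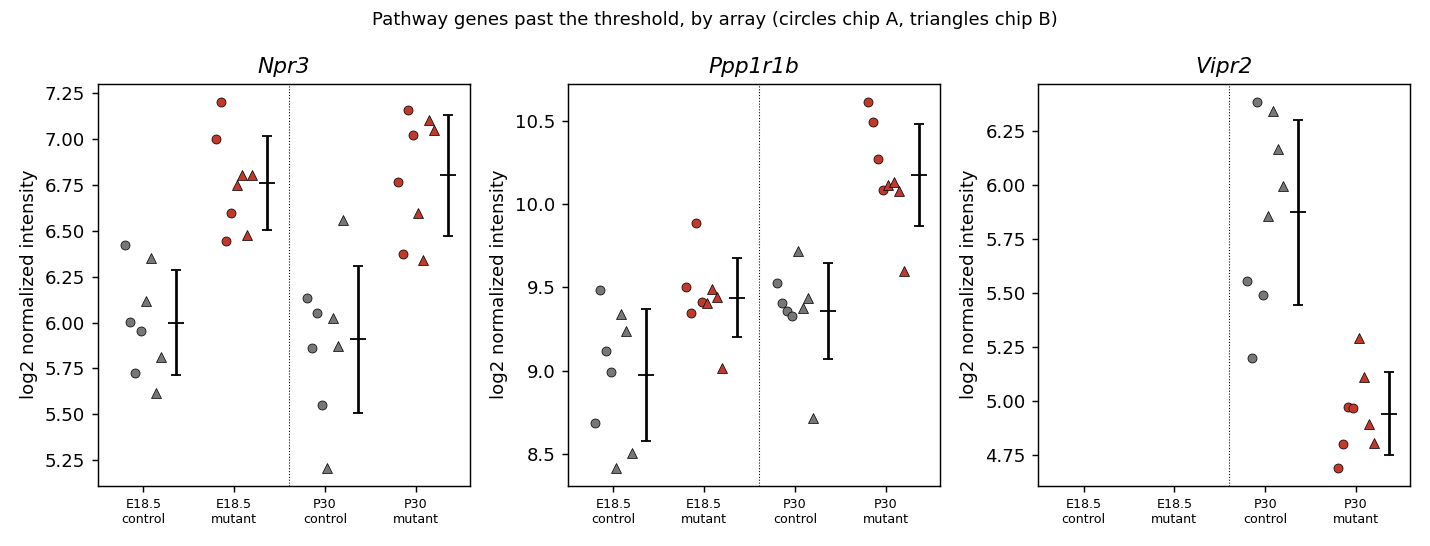
Log2 normalized intensity of Npr3, Ppp1r1b and Vipr2 on each array, by group, with circles for the first and triangles for the second chip of each age and the mean and SD beside each group of 8. E18.5 Npr3 mutants lie above all controls, 7 of 8 P30 mutants lie above all controls for Ppp1r1b, and Vipr2 has no E18.5 values because it was not tested at that age.

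Other marker lists moved with genotype at P30, where Pde2a, Adcy8 and Ppp1r1b rose. Of 7 periglomerular and dopaminergic markers tested 4 were higher (Th, Trh, Ddc and Slc6a3) and 1 lower (Kcnip1), and their summed normalized intensity was 10762 to 17095 in controls and 13868 to 28228 in mutants. Of 9 mitral and tufted cell markers 2 were higher (Slc17a7 and Tbr1) and 1 lower (Doc2g), with sums of 15485 to 23401 and 20092 to 32033. Of 7 microglial markers 4 were higher (C1qa, C1qb, C1qc and Trem2), with sums of 1272 to 2623 and 2316 to 6920. Of 8 astrocyte markers 1 was higher (Gfap). At E18.5, 1 of the 7 periglomerular and dopaminergic markers tested was lower in the mutants (Th). The summed normalized intensity of that list was then 13416 to 16552 in controls and 14034 to 18426 in mutants. The part of these cell types in the changes of Pde2a, Adcy8 and Ppp1r1b was not tested.

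The last comparison set the control bulbs of P30 against those of E18.5, with all 32 arrays processed together and a call needing an adjusted p under 0.05 and a change of at least 2-fold. Of 40 members, 9 passed, 7 higher and 2 lower at P30, beside 23.9% of 11312 genes (11.3% higher and 12.6% lower). The members' median log2 difference was 0.39, and that of all genes −0.01. With median scaling the median of all genes moved to −0.53 and that of the members to −0.18, and the calls over all genes went from 1278 higher and 1420 lower to 557 higher and 3447 lower, so signs below are relative to the bulk of the genes. The ages lay on separate chips and their controls carried different alleles, and age, chip and allele cannot be told apart.

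Akap12 differed most. Its level ran from 11.22 to 12.14 in E18.5 controls with a median of 11.57 and from 7.88 to 9.62 in P30 controls with a median of 9.14, a log2 difference of −2.72 (SE 0.25, 6.57-fold lower, limma adjusted p = 1.51e-11). No P30 control reached the E18.5 range. Adcy6, a cyclase that calcium inhibits, was the other member that fell, from 7.14 to 8.63 in E18.5 controls to 6.27 to 7.05 at P30 (log2 difference −1.28, SE 0.23, limma adjusted p = 1.11e-05). Adcy6 was lower in 8 of 8 P30 controls than in any E18.5 control. The share of all genes whose control groups did not overlap between the ages was not computed, here or for the genes below. Without the 2-fold limit, 6992 of 11312 genes had a limma adjusted p under 0.05 in this comparison.

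Prkg1 rose most, from a range of 5.55 to 6.61 in E18.5 controls to 7.34 to 8.57 in P30 controls (log2 difference 1.53, SE 0.16, limma adjusted p = 5.16e-10). Adcy2 ran from 9.26 to 9.85 at E18.5 and from 10.58 to 11.51 at P30 (1.36, SE 0.15, limma adjusted p = 1.2e-09). The other 5 that rose were phosphodiesterases, apart from Akap10 (1.13). They were Pde6a (1.28, against E18.5 controls of which 2 of 8 were above background), best known from rod photoreceptors, the calmodulin-activated Pde1c (1.14) and Pde1b (1.07), and the cAMP-specific Pde4b (1.02), and for each the groups did not overlap. Pde1b and Pde4b were named after their values were seen. Pde4b was detected on 4 of 8 E18.5 controls, so like that of Pde6a its difference is set against a group only partly above background. With median scaling, Prkg1 and Pde6a were the only ones of the 7 rises still past the call. With quantile normalization without background correction, only the rises of Adcy2 and Pde1b and the fall of Akap12 were. No rise passed under both alternatives. Pde4d was 0.99 higher at P30 and so just short of the 2-fold limit. Over 24 alternatives its difference ran from 0.21 to 1.05, with limma adjusted p-values up to 0.189, and it passed the call in 8. Pde2a (0.39) and Adcy8 (0.48) changed sign with median scaling, to −0.36 and −0.31. Of the 43 other pathway genes tested, 13 were higher at P30 and 3 lower, beside 11.3% and 12.6% of all genes. The 13 include Vipr2, which was detected on 0 of 8 E18.5 controls. These counts were not repeated under median scaling, which took the calls over all genes to 557 higher and 3447 lower.

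**Figure D5:**
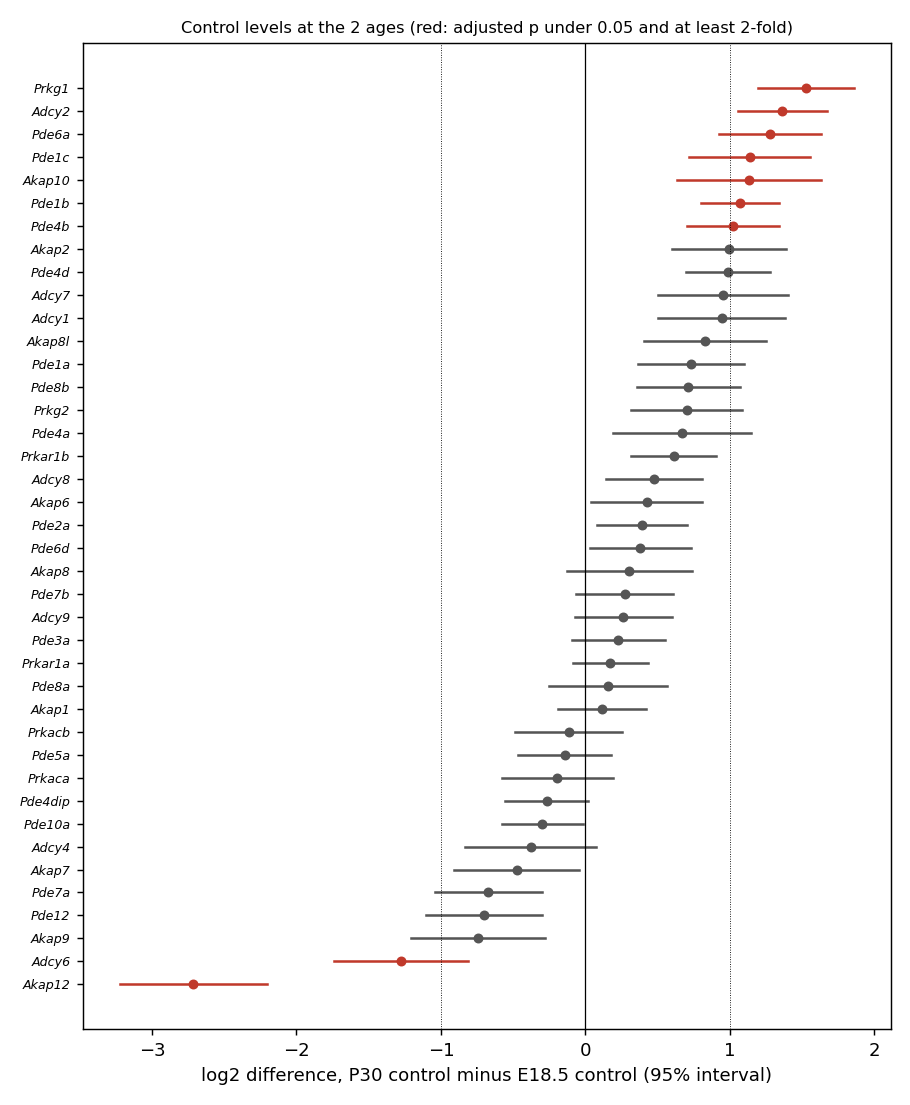
Log2 difference between P30 and E18.5 controls with its 95% interval for the 40 members, sorted by value, with dotted lines at 2-fold and members past the call in red. Akap12 (−2.72) and Adcy6 (−1.28) lie at the lower end, and Prkg1 (1.53) and Adcy2 (1.36) at the upper end. Pde6a (1.28) is set against E18.5 controls detected on 2 of 8 arrays.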

How the data were processed

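Total RNA of olfactory bulbs was labelled as biotinylated cRNA. The authors extracted bead signals with GenomeStudio, per the submitters' processing notes, which give no version. For 25697 probes on 32 arrays, the deposited non-normalized table gives, per the file headers, a mean bead intensity and the p-value of its detection. The deposited normalized table holds intensities with 25.7% of values below 0, and served only as an alternative. The platform annotation gave 1 gene symbol to 23978 probes, none to 1719 and several to 0.

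The neqc function of limma 3.58.1 (R 4.3.3) was applied to the non-normalized intensities. It estimates background through the detection p-values, adds 16 to each corrected value, applies quantile normalization and converts to log2. Each age was processed alone for the mutant comparisons, and all 32 arrays together for the comparisons across ages. A probe was kept if at least 4 arrays of a fit detected it (p under 0.05), and the brightest probe stood for its gene. Tests were limma's (lmFit and eBayes, two-sided, without covariates), with Benjamini-Hochberg adjustment over all genes and a threshold of 0.05, plus 2-fold for the control ages. The method was also run on simulated normal values, drawn independently for each gene and array without chip effects or outlying arrays. That run does not cover the features of the real arrays that changed calls here. Arrays give no read depth, and the number of arrays limits the precision.

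The members and lists were chosen with earlier results of these data known. Genes named were those past the threshold, the 2 members of smallest p in each class and mutant comparison, the 5 largest rises and falls between the control ages, called pathway genes, and genes near the detection rule. 1 adenylyl cyclase gene is not reported here. Each age had 2 chips with 4 arrays of each genotype. Deviations of same-numbered samples from their group means correlated at 0.118 to 0.355 over the 8 pairs at E18.5 (8 over 0.1). Within chips the range was −0.08 to 0.303, with 4 pairs over 0.1. Only 2 of 8 controls and 3 of 8 mutants of that age were closest to their own number. The main tests did not use pairs at either age. The numbers come from the labels. Alternatives were other background corrections, scalings, filters and variance models, every probe on its own, chip and replicate number as blocks, each chip alone, and leaving out arrays. Promoter windows came from RefSeq (GRCm38.p6), read with Python 3.11.15.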

Additional observations from a re-analysis of the deposited data

Results flagged for a closer look

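In 84 sets of 8 arrays, each a gene in a group, 4 held an array far from the others by Dixon's criterion, which chance meets in about 1 of 20. These were Adcy8 at 10.76 on E18.5 mutant replicate 7 (the nearest array was at 10.27), Prkacb at 13.52 on E18.5 control replicate 6 (nearest 14.23), Prkg1 at 7.78 on P30 control replicate 1 (nearest 6.97), and Ppp1r1b at 8.71 on P30 control replicate 8 (nearest 9.33). With each gene read by its brightest probe, the mutant change differed between the ages by the interaction test for Pde2a (0.85 on the log2 scale, limma adjusted p = 0.0278). Vipr2 met the same criterion with a fitted value of −1.23, but it was detected on 0 of 8 arrays in 3 of the 4 groups and missed the threshold with median scaling (−0.81, adjusted p = 0.0503), so that value is no measured size.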

How the results depend on the processing

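Pde4d was lower in the mutants under all 29 alternatives at each age, with log2 changes from −0.67 to −0.44 at E18.5 and from −1.27 to −0.64 at P30. Members called at E18.5 went from 1 to 0 on the second chip alone (5 of all genes called, against 63) and with all 32 arrays together (26 of all genes). At P30 they went from 3 to 1 on the first chip alone (137 of all genes, against 430) and to 0 on the second (194), and ran from 1 to 3 when 1 array was left out. With all 32 arrays together they numbered 4, and all genes called 1030. Median scaling and leaving out P30 mutant replicates 1 and 2 each kept 3 calls, but of Adcy2, Pde4d and Prkg1, all lower. For the difference between the ages, 1 call became 2 with quantile normalization without background correction, with the authors' normalized table, with chip as a block and without P30 mutant replicates 1 and 2, became 0 without E18.5 control replicates 6 and 8, and ran from 0 to 2 when 1 array was left out. All genes called there went from 209 to 84 with median scaling, 364 with chip as a block and 137 without those 2 controls. Between the control ages, 9 calls became 3 with quantile normalization without background correction (all genes 1585, against 2698) and 5 with the authors' table, and ran from 8 to 13 when 1 array was left out. Median scaling took the members above 0 there from 28 to 17 of 40 and, among those named, turned the sign of Prkar1b (−0.14), Prkar1a (−0.38), Adcy8 (−0.31), Pde2a (−0.36) and Akap8 (−0.40). The causes were not tested. With the replicate number as a block, no E18.5 call of a member changed. At P30 same-numbered samples correlated at −0.07 to 0.417 (6 of 8 pairs over 0.1). As at E18.5, not every sample was closest to its own number (4 of 8 controls and 2 of 8 mutants were). The labels give such samples only a shared number. Under the block P30 calls went to 4 (with Prkg1, adjusted p = 0.0360), and calls for the difference between the ages went to 4 (Adcy2, Adcy8, Pde2a and Prkg1), with 380 of all genes. On single chips, 4 arrays of each genotype remained.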
